A study of Mus musculus with 2 samples.

Results

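The transferrin receptor and the genes that take up, store, export and sense iron were examined in RNA sequencing of mouse primary chondrocytes. They are 10 genes picked by symbol (*Tfrc*, *Trf*, *Steap3*, *Slc11a2*, *Fth1*, *Ftl1*, *Slc40a1*, *Aco1*, *Ireb2* and *Hmox1*) from 22156 rows of the deposited table, and all 10 had a row. They were picked with the counts of these libraries known, so their differences are given as a description and without a test. The data are 1 control library and 1 library of *Myl3*-KO mice, the knockout, in which a Cre recombinase driven by the *Col2a1* promoter deletes floxed *Myl3* in cartilage cells. The control animals are *Myl3* flox/flox littermates in the methods of the study and WT in the sample labels. The cells came from newborn mice of the C57BL/6 J background, from rib cartilage in the labels and from rib and articular cartilage in the methods, and were kept untreated as a monolayer in serum-containing medium.

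Iron travels in the blood bound to transferrin, the product of *Trf*. The transferrin receptor, encoded by *Tfrc*, binds it at the cell surface, and clathrin-coated pits carry the pair into endosomes, which is why the study used labelled transferrin to follow clathrin-mediated endocytosis (CME). In the endosome the reductase STEAP3 converts the released iron and the transporter DMT1, encoded by *Slc11a2*, moves it into the cytosol. Ferritin, built from the chains encoded by *Fth1* and *Ftl1*, stores what is not used, ferroportin (*Slc40a1*) exports it, and heme oxygenase (*Hmox1*) frees the iron of heme. The proteins IRP1 (*Aco1*) and IRP2 (*Ireb2*) sense cytosolic iron. When iron is short they bind stem-loops called iron-responsive elements, where binding in the 3′ UTR protects the *Tfrc* message from decay and binding in the 5′ UTR blocks translation of the ferritin and ferroportin messages. A count of reads can show a difference in message level, but not one in translation.

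The element itself is shown because it divides these genes by the end of the message on which it lies. A search of GENCODE M21 transcripts on GRCm38 asked for an unpaired C, 5 bases, the loop CAGTGN and 5 bases that pair with the former 5, with G-T pairs allowed. It matched 4 sites in *Tfrc*, and 1 each in *Fth1*, *Ftl1* and *Slc40a1*. With 1 extra unpaired base allowed in the 3′ arm, *Slc11a2* also had 1 site. Each line gives 30 bases of the message strand, with the 6 loop bases in capitals.
*Tfrc* 3′ UTR, chr16:32631219-32631248, plus strand: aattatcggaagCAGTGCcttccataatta
*Tfrc* 3′ UTR, chr16:32631598-32631627, plus strand: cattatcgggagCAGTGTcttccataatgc
*Tfrc* 3′ UTR, chr16:32631663-32631692, plus strand: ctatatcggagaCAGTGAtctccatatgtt
*Tfrc* 3′ UTR, chr16:32631710-32631739, plus strand: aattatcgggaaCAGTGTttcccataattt
*Slc11a2* 3′ UTR, chr15:100395152-100395181, minus strand: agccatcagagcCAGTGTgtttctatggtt
*Fth1* 5′ UTR, chr19:9982732-9982761, plus strand: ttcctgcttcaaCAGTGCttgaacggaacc
*Ftl1* 5′ UTR, chr7:45459778-45459807, minus strand: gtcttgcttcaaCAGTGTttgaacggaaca
*Slc40a1* 5′ UTR, chr1:45925464-45925493, minus strand: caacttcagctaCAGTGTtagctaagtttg

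The 4 *Tfrc* sites lie in the last of 19 exons, and the *Slc11a2* site lies in exon 16 of 16 of transcript Slc11a2-205. The sites of *Fth1*, *Ftl1* and *Slc40a1* lie in exon 1, with the loop starting at base 99, 90 and 102 of Fth1-201, Ftl1-201 and Slc40a1-201. The *Fth1* and *Ftl1* sites have the same letter at 26 of 30 positions. Of the 20916 genes with a 5′ UTR in a protein-coding transcript, 0.148% held the strict pattern there, and 0.392% with the extra base allowed. Of the 21045 genes with a 3′ UTR in such a transcript, the shares were 0.613% and 1.70%. No match was found in the transcripts of *Trf*, *Steap3*, *Aco1*, *Ireb2* or *Hmox1*. A match describes the letters and says nothing of binding in these cells.

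**Figure D1:**
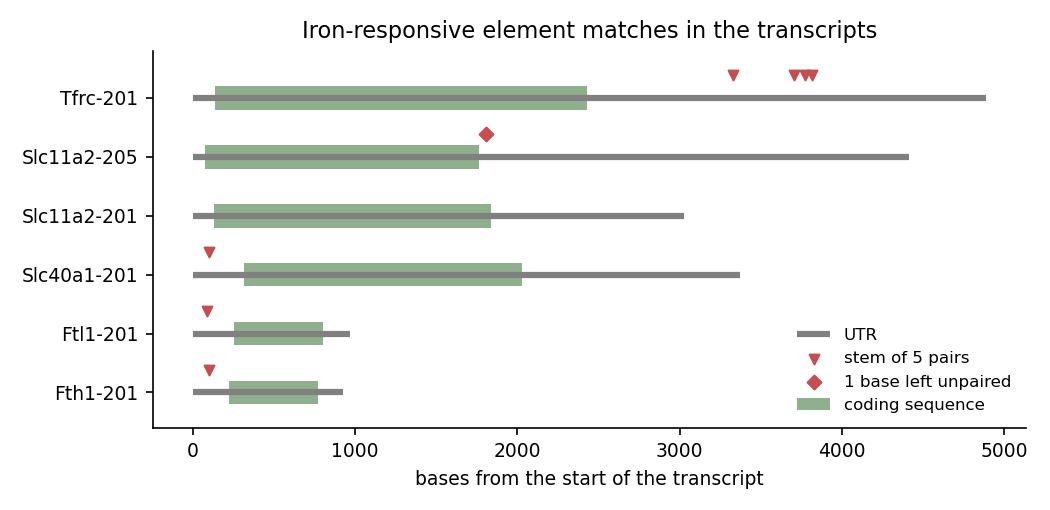
Transcript models of the genes with an iron-responsive element match, with bases from the transcript start on the horizontal axis, coding sequence as green boxes and UTRs as grey lines. Red marks show the loops, 4 of them in the 3′ UTR of *Tfrc*, 1 in the 3′ UTR of Slc11a2-205 but not of Slc11a2-201, and 1 in each 5′ UTR of *Slc40a1*, *Ftl1* and *Fth1*.

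The control library summed to 17612434.91 expected counts and the *Myl3*-KO library to 13477976.98. *Myl3* itself had 0 counts in both, so it gave no check of the genotype labels. Of 8 chondrocyte markers, *Acan*, *Matn1* and *Hapln1* were at 0 in both libraries, *Col2a1* had 30 counts in control cells against 27 in the knockout, and *Sox9* had 866 and 480, so the counts do not establish the labelled cell type. Of 7 fibroblast markers, *Thy1* was at 0 in both libraries and *Col1a2* stood at 12017 CPM in control cells against 14039 in the knockout. The fibroblast markers *Dcn* (631 and 155 counts, log2 ratio -1.64) and *Lum* (272 and 81 counts, log2 ratio -1.36) differed by more than any iron gene described here, and the whole list summed to 14799 and 16903 CPM. The part of the cells' makeup in the differences given here was not tested. Differences are log2 ratios, positive where the *Myl3*-KO library was higher, taken after scaling to the library total (CPM, counts scaled to a common library size), with a 95% Clopper-Pearson interval. These intervals cover counting error only. With 1 library per genotype there is no replicate check, and a difference between the cultures cannot be told apart from one between the genotypes. Nor can fewer cells of a type be told apart from less RNA per cell.

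In the control, the ferritin chains were the most abundant of these messages per length. On the FPKM scale (reads scaled to gene length and library size) *Fth1* stood at 880.19 and *Ftl1* at 460.99, above 99.4% and 98.8% of the 12431 genes that reached 10 counts when both libraries were summed. *Tfrc* followed at 48.95, then *Aco1* at 33.31 and *Ireb2* at 32.83, whose counting intervals overlapped. *Hmox1* at 21.21 and *Slc11a2* at 16.74 were next. *Steap3* at 3.41 and *Slc40a1* at 2.93 were lowest among those counted, and their intervals overlapped too.

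In *Myl3*-KO the top of this order was the same, with 935.49 FPKM for *Fth1* and 451.57 for *Ftl1*. *Tfrc* stood at 33.25 FPKM, within counting error of *Aco1* at 32.28, whose interval also overlapped that of *Ireb2* at 30.53. The receptor message, clearly above both sensor messages in the control, was thus level with *Aco1* here. *Hmox1* at 17.31 overlapped *Slc11a2* at 14.96. *Slc40a1* at 4.62 FPKM stood above *Steap3* at 2.79, with intervals that did not overlap.

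**Figure D2:**
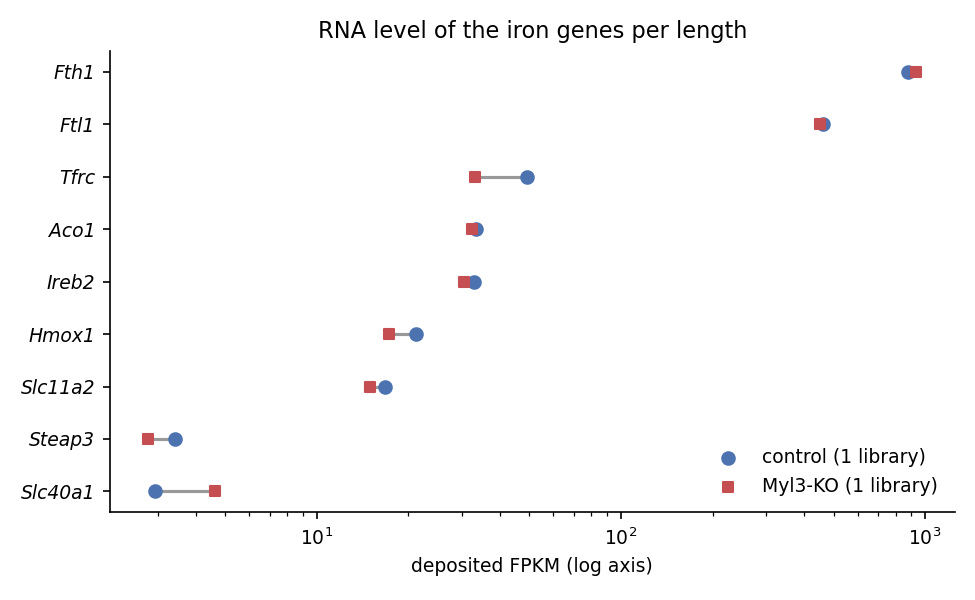
Deposited FPKM values on a log axis for the 9 iron genes counted in both libraries, as blue circles for the control library and red squares for the *Myl3*-KO library. *Tfrc* moves from 48.95 to 33.25 and *Slc40a1* from 2.93 to 4.62, while *Fth1*, *Ftl1*, *Aco1* and *Ireb2* stay close to their control level.

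Among the uptake genes, *Tfrc* (ENSMUSG00000022797, chr16:32608920-32632794, plus strand) was lower in the *Myl3*-KO library. It had 4171 counts in control cells against 2159 in the knockout, which is 236.8 and 160.2 CPM. The level was 32.4% lower, a log2 ratio of -0.56 (95% interval -0.64 to -0.49). Of the genes compared, 3.11% had a lower ratio, and of the 6385 genes with at least 1000 counts, 0.376% did. No other annotated gene overlaps *Tfrc*, and 0 of its 31-base words occur in an annotated transcript of another gene. Near matches and sequence outside the annotated transcripts were not searched.

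*Trf*, which encodes transferrin itself, was at the limit of counting, with 0 counts in control cells against 1 in the knockout. *Gm20425*, which overlaps *Trf* and holds 80.7% of its 31-base words, had 0 and 2.07 counts. A count of 3, taken as the floor, corresponds to 0.170 CPM (control) or 0.223 CPM (*Myl3*-KO), so *Trf* was not detectable at this depth in either library and no ratio is given. The receptor message was therefore well counted in cells in which the message of its ligand was not.

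*Steap3*, the endosomal reductase, had 159 counts in control cells against 106 in the knockout, a log2 ratio of -0.20 (95% interval -0.57 to 0.16). *Slc11a2*, the endosomal transporter, had 926 and 691 counts, a log2 ratio of -0.04 (95% interval -0.18 to 0.11). Both intervals include 0, so at this depth neither gene differed beyond counting error. The *Slc11a2* interval lay wholly above that of *Tfrc*, with its lower end at -0.18 against an upper end of -0.49.

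The FPKM values put *Slc11a2* lower than its counts did, at a log2 ratio of -0.16. The length by which the authors divided can be worked back from each count, FPKM value and library total. It was 3141 bases in the control and 3427 in *Myl3*-KO for *Slc11a2*, and 2647 and 2819 for *Steap3*. For *Slc11a2* it lay between the lengths of transcript Slc11a2-201 (3025 bases, without the element) and Slc11a2-205 (4415 bases, with it). For *Tfrc* it was 4838 and 4818 bases. For *Ftl1*, *Slc40a1*, *Hmox1*, *Ireb2* and *Aco1*, in contrast, the length was 968, 3372, 1569, 5769 and 3832 bases in the control and within 1 base of that in *Myl3*-KO. For *Fth1* it was 866 bases in both libraries, which is the length of none of its protein-coding transcripts in GENCODE M21. The authors may thus have used other transcript models, and this limits the *Slc11a2* comparison too. Reads per transcript are not in the table, so the shares of the forms were not measured directly.

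The storage genes stayed near their control level. *Fth1*, the ferritin heavy chain with iron-oxidising activity, had 13425 counts in control cells against 10919 in the knockout, a log2 ratio of 0.09 (95% interval 0.05 to 0.12). *Ftl1*, the ferritin light chain, had 7859.32 and 5891.54 counts, a log2 ratio of -0.03 (95% interval -0.08 to 0.02). Of the 31-base words of *Ftl1*, 85.4% occur in other genes, 30 in all, so its count is uncertain. The 1 of them with a row in the table, *Ftl1-ps1* in the annotation, had 23.68 and 17.46 counts.

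The export gene *Slc40a1* (ENSMUSG00000025993, chr1:45908068-45926523, minus strand), which encodes ferroportin, was higher in the *Myl3*-KO library. It had 174 counts in control cells against 210 in the knockout, which is 9.88 and 15.6 CPM. This is a 1.58-fold higher level and a log2 ratio of 0.66 (95% interval 0.36 to 0.96). Of the genes compared, 4.96% had a higher ratio. Ferroportin is abundant in macrophages. Of 12 macrophage markers, *Adgre1*, *Itgam*, *C1qa*, *C1qb*, *C1qc*, *Mrc1* and *Cd163* were at 0 in both libraries. The most counted were *Cd14*, with 50 counts in control cells against 30 in the knockout, and *Cd68*, with 18 and 16. The list summed to 5.06 CPM in the control and 4.67 in *Myl3*-KO. The part of such cells in the *Slc40a1* counts was not tested.

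The sensor genes differed little. *Ireb2*, which encodes IRP2, had 3336 counts in control cells against 2374 in the knockout, a log2 ratio of -0.10 (95% interval -0.18 to -0.03). *Aco1*, which encodes IRP1 and is also a cytosolic aconitase, had 2248 and 1667 counts, a log2 ratio of -0.05 (95% interval -0.14 to 0.05). The ratio of *Ireb2* to *Aco1* counts was 1.48 in the control and 1.42 in *Myl3*-KO. *Hmox1*, which releases iron from heme, had 586 counts in control cells against 366 in the knockout. Its level was 18.4% lower, a log2 ratio of -0.29 (95% interval -0.49 to -0.10), and 10.9% of the genes compared had a lower ratio.

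**Figure D3:**
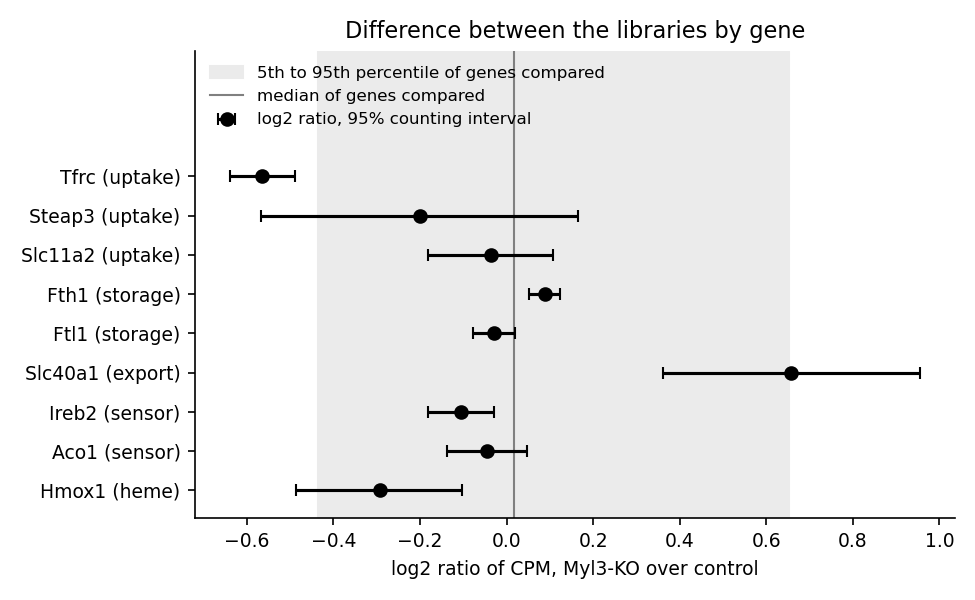
Log2 ratio of CPM in *Myl3*-KO over control for the 9 iron genes with at least 10 counts, with 95% counting intervals as bars, the median of all genes compared as a line and their 5th to 95th percentile (-0.43 to 0.65) as a grey band. *Tfrc* at -0.56 lies left of the band and *Slc40a1* at 0.66 sits at its right edge, while the other 7 genes lie inside it.

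Of the 10 genes, 9 passed the minimum of 10 counts, and 7 of these 9 had a ratio under 0 and 2 over 0, where 47.3% of all genes compared were under 0. Their median log2 ratio was -0.05, against 0.02 over all genes compared. A log2 ratio of -0.5 or lower was reached by 1 of the 9, *Tfrc*, and by 3.75% of all genes compared. A ratio of 0.5 or higher was reached by 1, *Slc40a1*, and by 7.99%. Among the genes with at least 1000 counts, where counting error is smaller, 0.72% reached the former limit. A counting interval without 0 was found for 5 of the 9 and for 42.4% of all genes compared. As the genes were picked from this comparison, these shares describe them and test nothing.

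**Figure D4:**
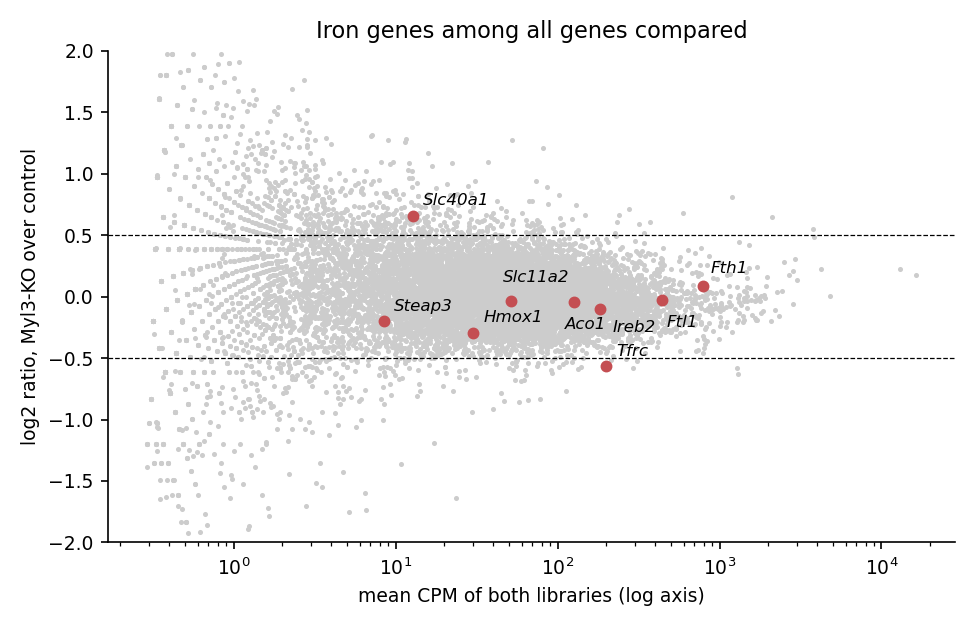
Log2 ratio against mean CPM on a log axis, with the 12431 genes compared as grey points, the iron genes in red and dashed lines at 0.5 and -0.5; 37 genes lie beyond 2 in size and are not drawn. *Tfrc*, at 236.8 and 160.2 CPM, lies below the lower line, as do 0.72% of the genes with at least 1000 counts, and *Slc40a1* lies above the upper line among many weakly counted genes.

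Ratios of one message to another within a library do not depend on how the libraries were scaled. Per *Tfrc* read there were 3.22 *Fth1* reads in control cells against 5.06 in the knockout, a log2 difference of 0.65 (95% Wald interval 0.57 to 0.74). For *Ftl1* the values were 1.88 and 2.73 (log2 difference 0.53, 95% Wald interval 0.44 to 0.62). Ferritin messages thus outnumbered receptor messages by more in *Myl3*-KO. Between uptake and export, there were 24.0 *Tfrc* reads per *Slc40a1* read in control cells against 10.3 in the knockout (log2 difference -1.22, 95% Wald interval -1.52 to -0.92). *Tfrc* and *Slc40a1* had the lowest and highest log2 ratios of the 9 genes, so this contrast restates those values. The Wald intervals, too, cover counting error only. *Fth1* to *Ftl1*, the 2 chains of ferritin, went from 1.71 to 1.85 reads (log2 difference 0.12), with the reservation on *Ftl1* above.

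Set by the end of the message that carries the element, the genes with a 3′ match had log2 ratios of -0.56 for *Tfrc* and -0.04 for *Slc11a2*. Those with a 5′ match had 0.09 for *Fth1*, -0.03 for *Ftl1* and 0.66 for *Slc40a1*. Of the genes with a 5′ match, *Slc40a1* alone was past 0.5, and the messages within each of these sets did not share a common ratio.

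A wider list of iron genes was set beside them. Of its 92 symbols, 89 had a row and 76 passed the minimum of counts, with a median log2 ratio of -0.06, 29 higher and 47 lower. Among all genes compared, 47.3% had a ratio under 0. A ratio of -0.5 or lower was found for 1 and of 0.5 or higher for 4, against the 3.75% and 7.99% of all genes. The genes of iron import other than the members include receptors, metal transporters and the plasma protein hemopexin. They had the highest median of these role lists, 0.42 over 8 genes compared, with 6 higher and 2 lower. Only 1 of the 8, *Lrp1*, had at least 1000 counts, so this median rests on weakly counted genes. The counting interval lay above 0 for 5 of the 8 and held 0 for 3, against 2762 and 7165 of the 12431 genes compared. *Scara5*, a cell surface receptor for ferritin, had 72 counts in control cells against 136 in the knockout (log2 ratio 1.30, 95% interval 0.88 to 1.74). *Lrp1*, a large receptor of many ligands, among them heme bound to hemopexin, had 4484 and 5170 counts (log2 ratio 0.59, 95% interval 0.53 to 0.65). *Hfe*, which encodes a partner of the transferrin receptor, had 75 and 80 counts (log2 ratio 0.48, 95% interval 0.01 to 0.95), and its FPKM ratio was larger at 0.76. *Lrp2*, a receptor related to *Lrp1*, had 29 and 22 counts (log2 ratio -0.01, 95% interval -0.88 to 0.84).

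The reductases and oxidases of iron had 6 genes compared, with a median log2 ratio of -0.15. The lowest was *Steap1*, a relative of *Steap3*, with 119 counts in control cells against 64 in the knockout (log2 ratio -0.51, 95% interval -0.97 to -0.06). The storage and chaperone genes had a median of -0.08 over 7 genes, and genes of iron sensing one of -0.07 over 4. For iron-sulfur cluster assembly in mitochondria, 18 of 22 genes were lower and 4 higher, with a median of -0.11 and 0 past 0.5 in size. Of all genes compared, 47.3% were lower and 11.7% were past 0.5. The counting interval lay below 0 for 6 of the 22 and held 0 for 16, against 2504 and 7165 of the 12431 genes compared. The lowest of them was *Cisd1*, an iron-sulfur protein of the outer mitochondrial membrane, at 1267 and 726 counts (log2 ratio -0.42, 95% interval -0.55 to -0.28). Cytosolic assembly (median -0.05, 9 genes) and heme synthesis (median 0.03, 12 genes) lay near 0. Heme transport and breakdown had a median of -0.01 over 8 genes, of which *Fam210b*, encoding a mitochondrial membrane protein, was the only one past 0.5 (140 and 191 counts, log2 ratio 0.83, 95% interval 0.51 to 1.16).

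The genes that carry the transferrin receptor through the cell centred near 0. Of 34 clathrin, adaptor, Rab, retromer, sorting and proton pump genes with a row, 32 were compared, with a median log2 ratio of -0.02. Of these, 15 were higher and 17 lower, and 0 were past 0.5 in size. Of the 32, 29 had at least 1000 counts, a class in which 1.91% of all genes were past 0.5, so 0 is near the background. Their ratios ranged from -0.35 to 0.35, so the *Tfrc* ratio of -0.56 lay outside the range of this list. These are message levels and carry no measure of uptake.

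**Figure D5:**
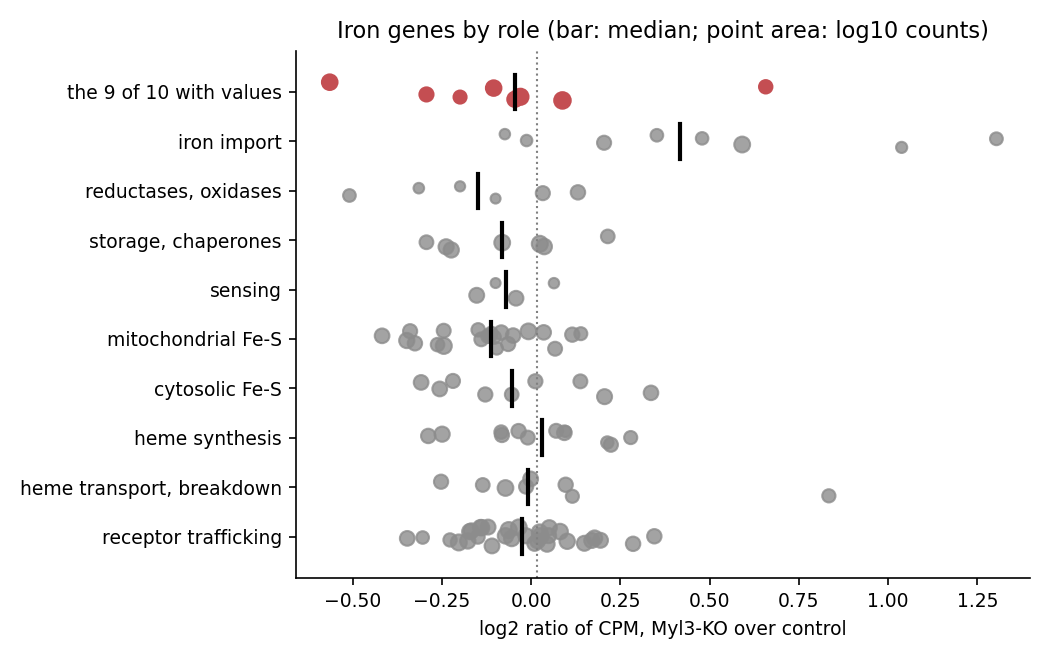
Log2 ratio of CPM in *Myl3*-KO over control for the iron genes and for lists of other iron genes by role, with 1 point per gene (point area grows with log10 counts), black bars for list medians and a dotted line at the median of all genes. The iron import list has the highest median (0.42) with points that overlap those of the other lists, but only 1 of its 8 genes had at least 1000 counts. The trafficking genes lie between -0.35 and 0.35.

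Some other gene lists were lower too. Of the low-oxygen genes, 15 of 16 rows compared were lower, with a median log2 ratio of -0.53 and 10 at -0.5 or lower. Of the proliferation genes, 16 of 16 were lower, with a median of -0.27 and 2 at -0.5 or lower. A ratio below 0 was found for 47.3% of all genes compared and for 52.5% of those with at least 1000 counts. A ratio of -0.5 or lower was found for 3.75% and 0.72% of them. Of the low-oxygen rows compared, 10 of 16 had at least 1000 counts, and of the proliferation genes 16 of 16. *Tfrc* is known as a gene of dividing cells and as a target of the low-oxygen response. The part of either in its lower level was not tested. Red cell precursors carry much transferrin receptor. Of their markers, *Alas2* and the hemoglobin genes *Hba-a2*, *Hbb-bs* and *Hbb-bt* were at 0 in both libraries, and the 7 erythroid markers with a row here summed to 8 counts in control cells against 7 in the knockout.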

How the data were processed

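The authors deposited 1 table with an expected count (estimated reads per gene, not normalized) and an FPKM value per gene and library. The aligner, counter, versions and strand setting are not given in the sources used here. The submitters' processing notes name GRCm38 and mm10. The column headed NC was taken as control because the other is headed KO. Counts were scaled to library totals, and counts under 3 were raised to 3. Expected counts were rounded for Clopper-Pearson and Poisson intervals. Genes needed 10 counts over both libraries. With 1 library per genotype no statistical test was run and no p-value computed. Members and lists were chosen with earlier results of these data known. All 10 members are named, and of other iron genes with at least 100 counts the 6 with the largest ratio in either direction. *Lrp2*, *Dcn*, *Lum*, *Col1a2* and the ferroptosis genes were named after their values were seen. Sequences and loci came from GENCODE M21 on GRCm38, which matched all 10 identifiers and may differ from the authors' annotation. The computation of ratios and intervals was checked on simulated counts. Alternatives were TMM factors (edgeR 4.0.16), size factors (DESeq2 1.42.0), 1 added count, FPKM ratios and 2 other count filters. Scripts used Python 3.11.15, scipy 1.17.1 and R 4.3.3. A marker of the erythroid list is not reported here.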

Additional observations from a re-analysis of the deposited data

How the results depend on the processing

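Of 84 values recomputed under the alternatives (TMM factors, DESeq2 size factors, 1 count added to each library, the FPKM ratio, no filter on low counts, and at least 10 counts in each library) the 54 ratios of single genes stayed within the counting interval of the reported ratio and the 12 numbers of genes within 1.5 times of the reported number. The other 18 are medians, which ranged from -0.10 with FPKM to -0.05 for the iron genes described, from -0.08 with TMM factors to -0.008 with FPKM for the other iron genes and from -0.0012 with TMM factors to 0.02 for all genes, so the sign of the last was not fixed. The log2 ratio of *Tfrc* ranged from -0.58 to -0.56, that of *Slc40a1* from 0.64 to 0.66 and that of *Hmox1* from -0.31 to -0.29. The widest range was that of *Slc11a2*, from -0.16 with FPKM to -0.04. No paired analysis was possible because each genotype has 1 library. Leaving out a library would leave its genotype with none. Depth limits *Trf*, which is under the floor, and *Steap3* and *Slc40a1*, with at most 210 counts in a library.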

Other observations

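The pathway column of the table lists 40 genes under ferroptosis, a form of cell death driven by iron and lipid peroxidation, of which 34 had at least 10 counts. Their median log2 ratio was -0.07, with 12 higher and 22 lower in *Myl3*-KO. A ratio below 0 was found for 47.3% of all genes compared and for 52.5% of those with at least 1000 counts. Among the 34, *Tfrc* had the lowest ratio (-0.56) and *Slc40a1* the highest (0.66). *Gpx4*, which removes lipid peroxides, went from 5688 to 3782 counts (log2 ratio -0.20), and *Slc7a11*, which imports cystine, from 173.02 to 103.01 (log2 ratio -0.36). Of the genes not among the 10, *Trp53* (579 and 545 counts, log2 ratio 0.30) and *Map1lc3b*, a marker of autophagosomes (2891 and 2657 counts, log2 ratio 0.26), were higher. The counting interval lay above 0 for 7 of the 34 and below 0 for 15, against 2762 and 2504 of the 12431 genes compared. Of the 34, 26 had at least 1000 counts. Among the 6385 genes with that many counts, the interval lay above 0 for 1747 and below 0 for 1996. *Ncoa4*, which delivers ferritin for breakdown, went from 2304 to 1495 counts (log2 ratio -0.24). This list was looked up after the values were seen, and it holds members of the report.

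A list of NRF2 targets, stress response genes to which *Hmox1* belongs, had a median log2 ratio of -0.08 over 11 genes. Of these 11, 9 were lower and 2 higher, where 47.3% of all genes compared were lower. At least 1000 counts were reached by 8 of the 11, a class in which 52.5% of genes were lower. The counting interval lay below 0 for 4, above 0 for 2 and held 0 for 5. Over all 12431 genes compared it lay below 0 for 2504, above 0 for 2762 and held 0 for 7165. The genes nearest to *Tfrc* in FPKM over both libraries were *Azin1*, *Pno1* and *Cycs*, at 48.49, 48.8 and 51.25 FPKM in the control and 33.94, 34.79 and 34.07 in *Myl3*-KO. By counts, their log2 ratios were -0.19, -0.49 and -0.59, so that *Azin1* differed less by counts than by FPKM. With 2 libraries this likeness rests on 2 values per gene.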
